A study of Mus musculus with 6 samples.

Results

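The genes described here make or import amino acids: 6 enzymes of serine, one-carbon and asparagine synthesis (Phgdh, Psat1, Psph, Shmt2, Mthfd2, Asns) and 4 subunits of plasma membrane transporters (Slc7a5, Slc3a2, Slc7a11, Slc7a1). They were taken by name, as every probe set whose platform annotation gives 1 of these 10 symbols alone. This gave 22 probe sets, 1 to 4 for each gene, of 45037 probe sets and 18193 named genes on the array. Of the 22, 20 had a mean log2 intensity above the median of all probe sets and were tested among 22518, and each of the 10 genes kept at least 1 tested probe set. The study hybridised RNA of NIH3T3, an established line of mouse fibroblasts, to 6 Affymetrix expression arrays, and asked about the transcription of genomic regions held at the inner nuclear membrane. All 6 samples were of clone M, which carries multiple insertions of lacO, the bacterial operator sequence bound by the lac repressor. In the 3 tethered samples the insertion lay at the nuclear periphery, and in the 3 untethered samples it lay centrally. Both groups grew in the same medium with 10% serum to about 80% confluency. Both groups come from 1 clone, and the sources used here do not name the agent that moves the insertion.

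The samples of each group carry the numbers 1, 2 and 3, and nothing in the labels says that they came from separate cultures, so p-values measure the spread between these samples, which may be technical. The median intensity lay between 482.5 and 490.8 on the 6 arrays. Of 10 fibroblast markers, 9 had a probe set, and all 9 were brighter than the median probe set. So were 2 of 6 epithelial, 2 of 6 endothelial, 4 of 7 leukocyte and 1 of 3 adipocyte markers. For skeletal muscle and neural markers it was 3 of 5 each. The arrays numbered 1, 1 of each group, were compared with the other 4, and 9.86% of tested probe sets were called (1.59% higher, 8.27% lower; 357 and 1863 probe sets, or 910 and 1621 with quantile normalization), against 0% between tethered and untethered arrays. This count of 2220 was 929 without untethered replicate 3, 552 without tethered replicate 3 and 0 with an unmoderated model. It also fell without either array numbered 1, and most without tethered replicate 1. Leaving out an array also leaves fewer arrays to estimate the spread, and the parts of these were not separated. The summed intensity of the 9 fibroblast markers was 90591 and 76142 on the arrays numbered 1 and 98234 to 100760 on the others. The sum of 6 epithelial markers was 5052 and 5067 against 4561 to 4793. For 5 neural markers it was 2611 and 2698 against 2995 to 3166, and for 3 adipocyte markers 957 and 912 against 977 to 1049. Sums of endothelial, leukocyte and skeletal muscle markers overlapped. For the transferrin receptor control, whose probes lie towards both ends of the transcript, the log2 signal at the 5' end minus that at the 3' end was -2.81 (untethered 1), -3.07 (untethered 2) and -2.09 (tethered 1), and lay between -1.67 and -1.52 on the other 3 arrays. For actin the same difference was -0.31, -0.56 and -0.29 on those 3 arrays and -0.15 to -0.10 on the others. The 5' probe set of 18S ribosomal RNA read 12.06, 12.16 and 11.15 (log2) on untethered arrays 1, 2 and 3 and 10.94, 10.48 and 10.79 on the tethered ones, so that it moved with the group and the groups did not overlap. The part of these differences in the results below was not tested. In bulk RNA, fewer cells in a given state and less RNA per cell cannot be told apart.

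Serine is made from a glycolytic intermediate in a short chain of reactions, and its side carbon then feeds the folate cycle in mitochondria, which serves nucleotide synthesis. Asparagine synthetase uses glutamine to make asparagine. Amino acid exchange at the cell surface runs largely through light chains (Slc7a5, Slc7a11) that pair with the heavy chain Slc3a2. When amino acids run short or the endoplasmic reticulum is stressed, phosphorylation of eIF2 favours translation of the transcription factor ATF4. ATF4 binds C/EBP-ATF response elements in target genes, and most of the genes described here are known ATF4 targets.

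That element was searched for in the 250 bases before the annotated start of each gene (RefSeq, GRCm38.p6), as TGATGNAA on either strand. Windows were found for 9 of the 10 genes, all but Slc7a5. A match stood in the windows of 2 of the 9, Asns and Slc7a11, and in those of 3.91% of 27025 genes. By window this was 2 of 11, against 3.45% of all 32851. The 3 windows below are shown because Asns and Slc7a11 hold the matches, while Slc3a2, which holds none, is the gene with the largest difference between arrays. Matches are in capitals, and each window is written 5′ to 3′ on the gene's strand, the minus strand in each case. The Asns window is chr6:7693210-7693459, that of Slc7a11 is chr3:50443614-50443863 and that of Slc3a2 is chr19:8713898-8714147. In Asns the match begins 23 bases before the start, and in Slc7a11 the matches begin 66 and 47 bases before it, the second on the opposite strand. A match is a run of letters and not a measured binding site.
Asns: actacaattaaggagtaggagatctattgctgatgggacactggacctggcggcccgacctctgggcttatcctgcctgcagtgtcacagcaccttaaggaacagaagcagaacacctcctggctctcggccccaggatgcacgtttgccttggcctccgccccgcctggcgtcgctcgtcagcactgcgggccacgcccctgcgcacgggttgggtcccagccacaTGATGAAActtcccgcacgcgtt
Slc7a11: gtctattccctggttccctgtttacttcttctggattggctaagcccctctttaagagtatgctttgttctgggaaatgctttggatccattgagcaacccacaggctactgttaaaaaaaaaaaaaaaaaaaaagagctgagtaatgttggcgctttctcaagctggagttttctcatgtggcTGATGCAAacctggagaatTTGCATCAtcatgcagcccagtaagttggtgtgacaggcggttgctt
Slc3a2: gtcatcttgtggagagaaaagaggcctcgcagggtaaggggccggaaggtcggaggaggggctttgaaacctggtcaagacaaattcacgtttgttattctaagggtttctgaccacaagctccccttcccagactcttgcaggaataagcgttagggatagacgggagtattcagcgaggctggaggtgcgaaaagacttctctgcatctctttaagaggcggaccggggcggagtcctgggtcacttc

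The serine synthesis enzymes did not vary alike over the arrays. Phgdh, phosphoglycerate dehydrogenase, which takes the first step, was nearly flat. Its brightest probe set read 11202, 12488 and 10512 on untethered arrays 1, 2 and 3 and 11488, 11289 and 11047 on tethered arrays 1, 2 and 3. The highest array was 1.19-fold the lowest, and over its 4 probe sets this fold ran from 1.11 to 1.19. The log2 difference of tethered minus untethered was -0.01 with a standard error (SE) of 0.08 and a 95% interval from -0.21 to 0.19. Its sign turned with quantile normalization (0.013). All 4 Phgdh probe sets are of a class that can cross-hybridise with related sequences, and 2 further ones, which list a second gene symbol, were left out.

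Psat1, phosphoserine aminotransferase, the second enzyme, was low on 1 array. Its brightest probe set read 6144, 8552 and 8732 on untethered arrays 1, 2 and 3 and 8198, 8858 and 9098 on the tethered ones. Untethered 1 thus lay below the other 5 arrays, and its second probe set showed the same with 5310 against 7029 to 7659. The log2 means were 13.09 ± 0.08 in tethered and 12.91 ± 0.28 in untethered arrays (SD, n = 3 each), a difference of 0.18 (SE 0.15, limma adjusted p = 0.999).

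Psph, phosphoserine phosphatase, which completes serine, had a wider spread. It read 2646, 3601 and 2080 on untethered arrays 1, 2 and 3 and 4851, 2476 and 2116 on tethered arrays 1, 2 and 3. Tethered 1 was the highest, untethered 2 the next, and the groups overlapped. Its standard deviation over 6 arrays was 0.479 on the log2 scale, against a median of 0.123 over all genes tested. The tethered minus untethered difference was 0.12 (SE 0.36), with an interval from -0.75 to 0.99.

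**Figure D1:**
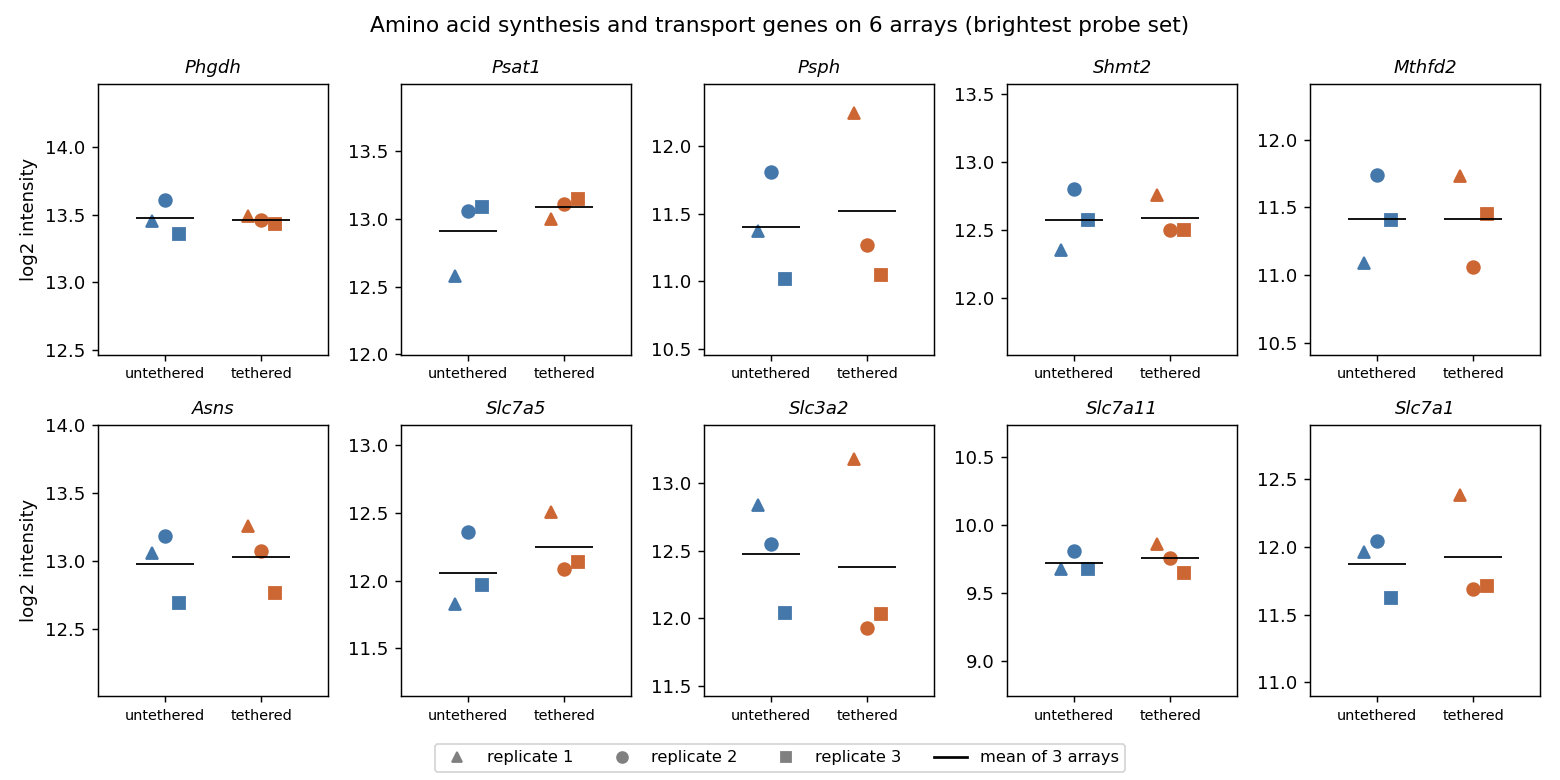
Log2 intensity (vertical axis, a span of the same width in each panel) of the brightest probe set of each gene on untethered and tethered arrays. Symbols mark the replicate number and lines the mean of 3 arrays; tethered 1 is the highest array for 6 genes, and the groups overlap for all 10.

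The brightest probe sets of the mitochondrial one-carbon enzymes shared a pattern of high values on tethered 1 and untethered 2. Shmt2, the mitochondrial serine hydroxymethyltransferase that passes the serine carbon to folate, read 5227, 7155 and 6066 on untethered arrays 1, 2 and 3 and 6917, 5777 and 5798 on tethered arrays 1, 2 and 3. Its 4 probe sets had tethered minus untethered differences of 0.01, 0.00, 0.17 and 0.07, each with an SE from 0.10 to 0.14. The probe set with 0.17 read 4814 on tethered 1 but 4268 on both untethered 2 and tethered 3. The other Shmt2 probe sets are of the class that can cross-hybridise with related sequences. Mthfd2, which oxidises the folate-bound carbon, read 2178, 3414 and 2721 on untethered and 3397, 2138 and 2798 on tethered arrays. Untethered 2 and tethered 1 were the highest and untethered 1 and tethered 2 the lowest. The tethered minus untethered difference was 0.00 (SE 0.23). The second Mthfd2 probe set did not show the high value on untethered 2, with 2344 there, and read 3550 on tethered 1 against 2073 to 2653 on the other 5 arrays.

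Asns, asparagine synthetase, read 8542, 9253 and 6597 on untethered arrays 1, 2 and 3 and 9827, 8624 and 6933 on tethered arrays 1, 2 and 3. Both arrays numbered 3 were the lowest, and the difference between the groups was 0.06 (SE 0.18; interval -0.38 to 0.49). Its second probe set also had its lowest values on the arrays numbered 3, at 5271 and 5310, against 6286 to 8364 elsewhere.

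Slc3a2, the heavy chain (CD98) that carries several light chains to the membrane, had the widest spread of the 10 genes, a standard deviation over 6 arrays of 0.511. It read 7324, 5996 and 4221 on untethered arrays 1, 2 and 3 and 9308, 3912 and 4177 on tethered arrays 1, 2 and 3. Both arrays numbered 1 were above the other 4, and tethered 1 was 2.38-fold tethered 2. The log2 means were 12.38 ± 0.70 in tethered and 12.48 ± 0.40 in untethered arrays (SD, n = 3 each). Their difference was -0.10 (SE 0.38), smaller than the spread in either group. The 3 arrays with the highest Slc3a2 values were also the 3 lowest by the 5' to 3' difference of the transferrin receptor. The same 3 arrays were highest for Psph and the brightest Slc7a1 probe set, but not for the brightest probe sets of the other genes. The part of RNA quality was not tested.

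Slc7a5, the LAT1 light chain for large neutral amino acids, read 3648, 5259 and 4004 on untethered and 5852, 4365 and 4499 on tethered arrays. Its highest arrays were tethered 1 and untethered 2, as for the brightest probe sets of Shmt2 and Mthfd2. Untethered 1 was the lowest although its partner Slc3a2 was high there. Its difference of 0.19 (SE 0.18; interval -0.24 to 0.63) was the largest among the genes' brightest probe sets. Slc7a11, the xCT light chain that brings in cystine, read 819, 896 and 819 on untethered and 932, 868 and 805 on tethered arrays, with a difference of 0.04 (SE 0.08). Its other probe set lay below the filter and was not tested, at 249 on tethered 1 and 113 to 140 on the other 5 arrays.

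Slc7a1, the CAT1 carrier of arginine and lysine, read 3984, 4226 and 3156 on untethered and 5338, 3294 and 3350 on tethered arrays. Tethered 1 was highest, and the difference was 0.05 (SE 0.22). A second tested probe set read 4330 on tethered 1 and 1945 to 2875 elsewhere. Its remaining probe set lay below the filter and was not tested, at 371, 309 and 408 on untethered and 502, 424 and 435 on tethered arrays. There the groups did not overlap, a state found in 8.4% of all genes tested.

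**Figure D2:**
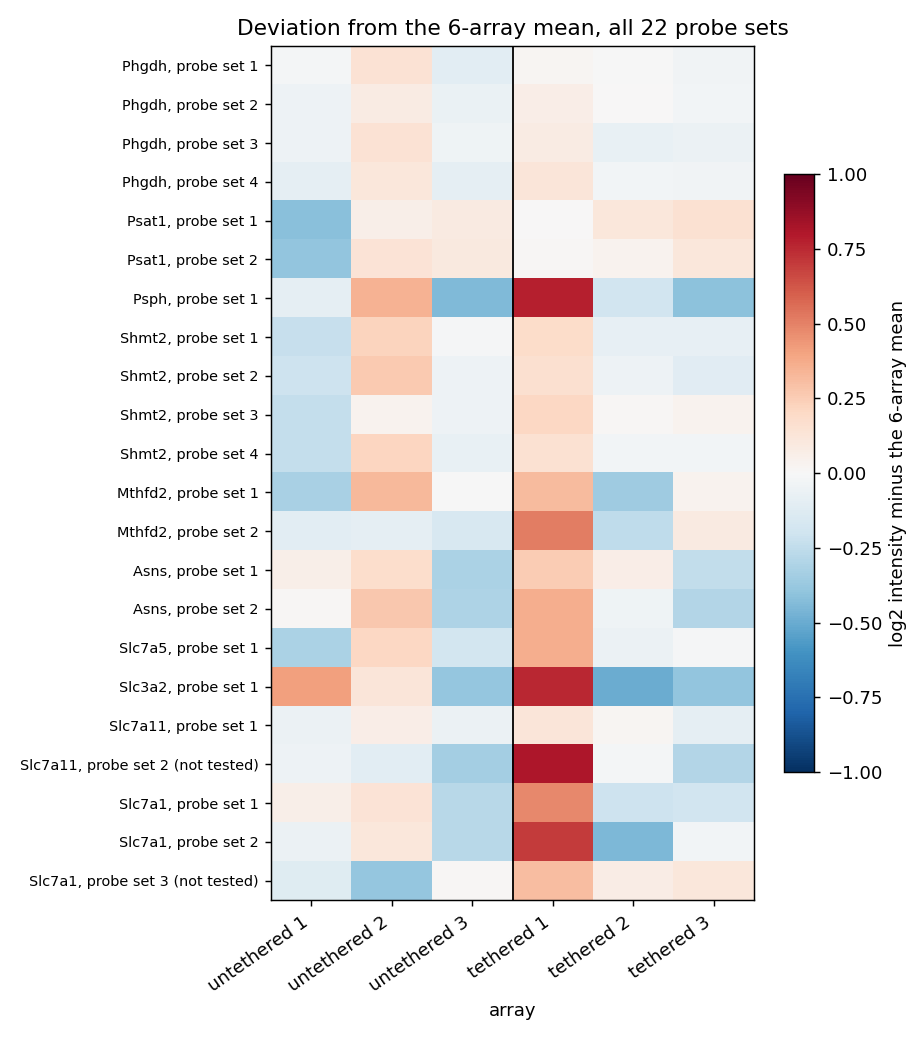
Log2 intensity minus the 6-array mean for all 22 probe sets (rows, brightest first within each gene) on the 6 arrays (columns; a line divides the groups). The column of tethered 1 is above 0 for most rows, and Psph, Slc3a2 and Slc7a1 have the widest range among tested genes.

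The first comparison asked whether these genes differ between cells with a peripheral and cells with a central insertion. None of the 10 genes passed the threshold, an adjusted p under 0.05 by limma with Benjamini-Hochberg adjustment over all probe sets tested, and the background was 0% of probe sets and 0% of genes. The smallest adjusted p over all probe sets was 0.9994. At an unadjusted p under 0.05 there were 0 of the 10 genes and 2.44% of 11846 genes, and an unmoderated linear model called 0 probe sets too. The genes' differences ran from -0.10 to 0.19 with a median of 0.044, against a median of -0.022 over all genes. The 18S signal, lower on all 3 tethered arrays, moved with this comparison, and its part was not tested. For 8 of 10 genes the value was above 0, as it was for 41.2% of all genes. Without tethered replicate 1 this count was 2 and without both arrays numbered 1 it was 1, with medians of -0.067 and -0.093. By brightest probe set the groups overlapped for all 10 genes, and did not overlap for 8.4% of genes. The widest interval, that of Slc3a2, ran from -1.03 to 0.84, and the narrowest, those of Phgdh and Slc7a11, reached no further than 0.24 from 0.

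Tethered and untethered arrays of the same number were also set side by side, as a description. Between the arrays numbered 1 it was above 0 for all 10 genes and all 20 tested probe sets, from 0.04 (Phgdh) to 0.87 (Psph), with a median of 0.41 over genes. Over all genes it was above 0 for 51.7%, with a median of 0.01. Between the arrays numbered 2 it was above 0 for 1 of 10 genes, Psat1 at 0.05, and below 0 for the other 9, down to -0.68 (Mthfd2), with a median of -0.29; over all genes 38.8% were above 0, with a median of -0.06. With quantile normalization 2 of 10 were above 0 there. Between the arrays numbered 3 the 10 genes lay between -0.07 and 0.17, with 7 above 0 and a median of 0.05. Over all genes 48.5% were above 0 there, with a median of -0.00. These are differences of single arrays and have no error of their own.

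**Figure D3:**
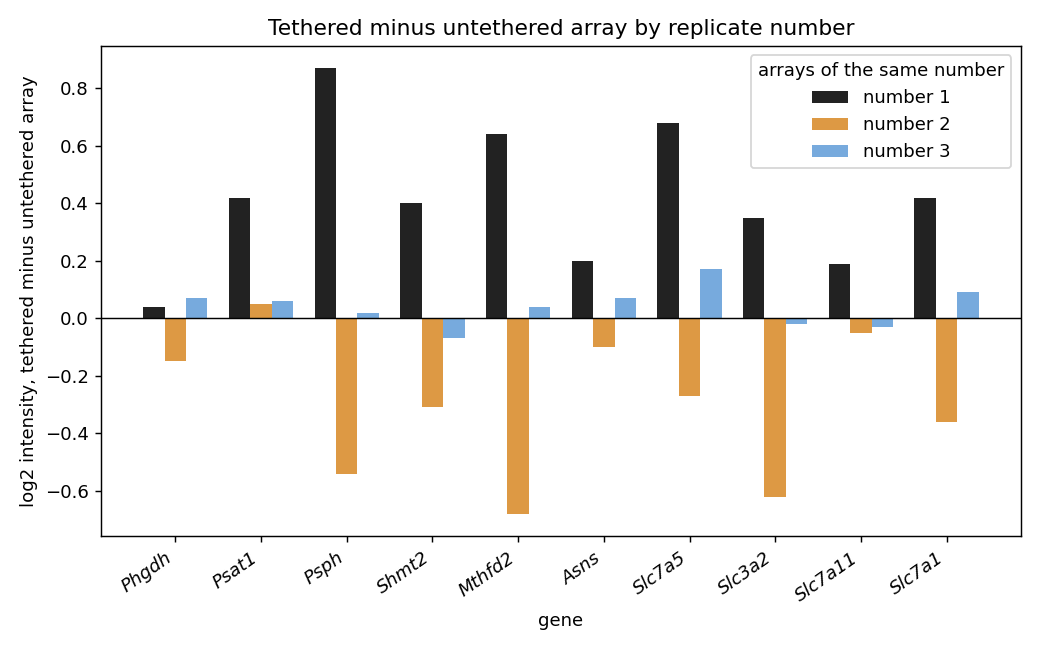
Log2 intensity of the tethered minus the untethered array of the same replicate number (bars, 1 per number) for each gene. Bars of number 1 are above 0 for all 10 genes (0.04 to 0.87), those of number 2 below 0 for 9 of 10, and those of number 3 lie between -0.07 and 0.17.

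A test of the difference itself, between the number 1 value and that of numbers 2 and 3, was above 0 for 10 of 10 genes, with a median of 0.575 against 0.036 over all genes, of which 57.6% were above 0. It ran from 0.07 (Phgdh) to 1.13 (Psph, SE 0.46). None of the 10 genes passed (limma, smallest adjusted p 0.917), and 0% of all probe sets did. In this test number 1 holds a single array in each group, so the spread comes from the arrays numbered 2 and 3 alone and its unadjusted p-values support no gene. Those of Mthfd2 (0.96), Slc7a5 (0.73) and Shmt2 (0.59) were under 0.05, as were those of 5.01% of all genes. Without untethered replicate 2 the count above 0 was 8, with Phgdh at -0.051 and Asns at -0.027.

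The arrays numbered 1 were then compared with those numbered 2 and 3, with the group as a covariate. This split was chosen with earlier results of these data known, so its p-values only describe these arrays. Slc3a2 was 1.83-fold higher on the arrays numbered 1, at 13.01 against 12.14 ± 0.28 (log2, SD, n = 4), a difference of 0.87 (SE 0.20). It was the 1 gene of 10 to pass (limma adjusted p = 0.0486, a value near the threshold), where 10.1% of all genes passed, 1.41% higher and 8.72% lower. In the untethered group Slc3a2 was higher by 0.54 and in the tethered group by 1.20. The call was lost without tethered replicate 1 (0.54, adjusted p = 0.314), untethered replicate 1 (1.20, 0.0559), tethered replicate 2 (0.81, 0.101), untethered replicate 3 (0.81, 0.109) or tethered replicate 3 (0.85, 0.158), and kept without untethered replicate 2 (1.03, 0.0107). Without either array numbered 1, the lone array left is assumed to vary like the others. The call was also lost with no filter on low values (adjusted p = 0.0839) and with an unmoderated model (0.239).

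Psat1 went the other way, at -0.31 (SE 0.10), with an unadjusted p of 0.0192 and an adjusted p of 0.107. Its arrays numbered 1 lay below the other 4, by 0.49 in untethered and 0.13 in tethered arrays, and it was -0.12 with quantile normalization. Slc7a1 (0.40, SE 0.17, adjusted p = 0.2) and Psph (0.52, SE 0.32, adjusted p = 0.377) did not pass. Slc7a1 passed without untethered replicate 2 (0.535, adjusted p = 0.0338). Asns stood at 0.24 (SE 0.17), and Phgdh, Shmt2, Mthfd2, Slc7a5 and Slc7a11 between -0.04 and 0.05. Slc3a2 and Psat1 were the 2 of 10 genes whose arrays numbered 1 did not overlap the others, a state found in 37% of all genes. Of the 10 genes 7 were above 0, as were 43.1% of all genes, and their median was 0.041 against -0.026.

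Values within each group are given as a description, each of a single array against 2 others. In the tethered group, array 1 was above the mean of arrays 2 and 3 for 9 of 10 genes, with a median of 0.37. In the untethered group it was above for 3 of 10, Asns, Slc3a2 and Slc7a1, with a median of -0.06. Over all genes the shares were 45.2% and 40.5%. Untethered 2 resembled tethered 1 in that all 10 genes were above their own 6-array mean on both, while 3 were on untethered 1 and tethered 2, 2 on tethered 3 and 1 on untethered 3. Over all genes 62.7% lay above their mean on untethered 2 and 44.8% on tethered 1.

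**Figure D4:**
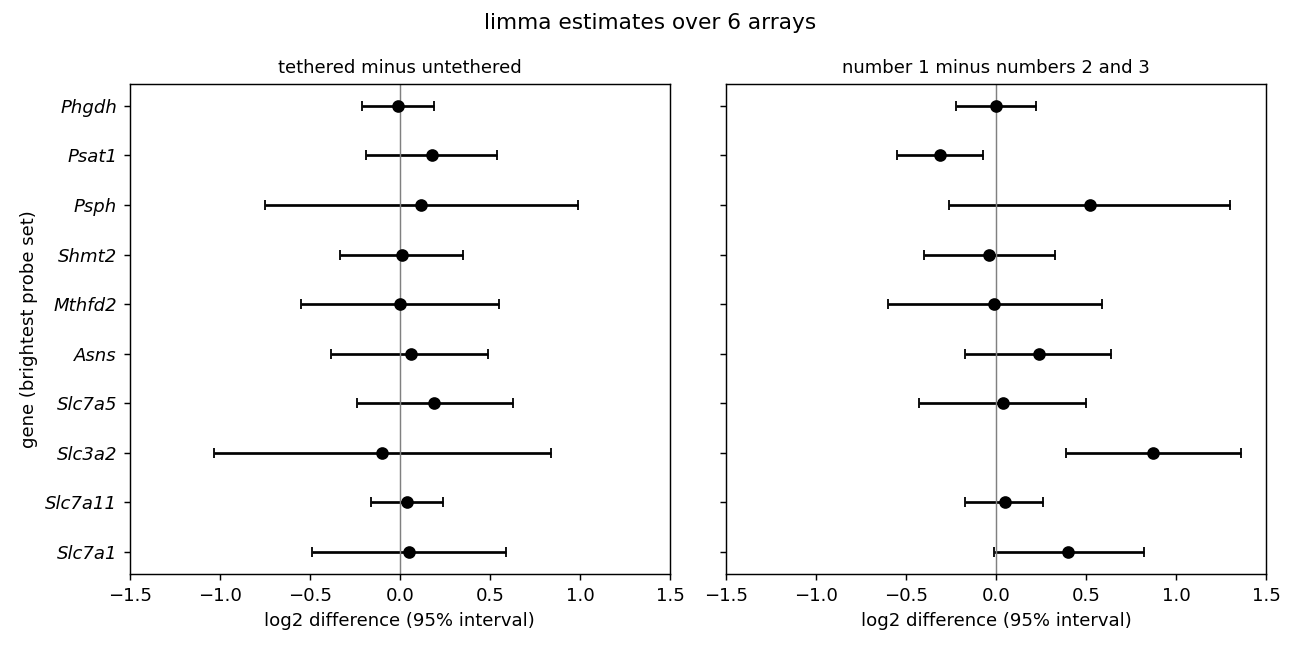
Log2 difference with its 95% interval from limma for the brightest probe set of each gene, between groups (left) and between replicate numbers (right). Intervals between groups all hold 0; between numbers that of Slc3a2 (0.39 to 1.36) lies above 0 and that of Psat1 (-0.55 to -0.07) below.

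Other genes of amino acid metabolism and related pathways were read from 6 lists. Between tethered and untethered arrays 0 genes passed in each list, with medians from -0.14 (glycolytic enzymes) to 0.03 (other transporters). Between numbers the lists differed. Of 20 tested regulators and feedback genes of the response through eIF2 and ATF4, 8 were higher on the arrays numbered 1 and 0 lower. The median of the 20 was 0.51, and over all genes 1.41% were higher and 8.72% lower. This response follows amino acid shortage or endoplasmic reticulum stress, which were not told apart here. Ddit3, which encodes CHOP, read 5096 and 9594 on untethered and tethered 1 and 820 to 1859 on the other 4 arrays, a difference of 2.74 (SE 0.41, adjusted p = 0.0177). Atf3, a stress-induced repressor, stood at 2.76 (SE 0.39), Trib3, a pseudokinase that restrains ATF4, at 1.61 (SE 0.17) and Herpud1, a degradation factor of the endoplasmic reticulum, at 1.05 (SE 0.14). The other 4 that passed, named after their values were seen, were Chac1 (2.11), Ppp1r15a (1.86), Nupr1 (1.52) and Ddit4 (0.90). The count was 0 without tethered replicate 1, 1 without tethered replicate 3, 4 without untethered replicate 3 and 5 without tethered replicate 2. Of 4 eIF2 kinases 0 passed. All the regulators that passed, except Herpud1, had their 3 highest values on tethered 1, untethered 1 and untethered 2. These arrays had the lowest 5' to 3' differences of the transferrin receptor, and the part of RNA quality was not tested.

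Atf4 itself, named after its values were seen, did not pass (0.42, SE 0.23, adjusted p = 0.318). It read 6918, 7743 and 7132 on untethered and 11618, 5718 and 6363 on tethered arrays. Tethered 1 was the highest and untethered 1 lay within the range of the others, whereas Ddit3 was high on both arrays numbered 1. The Atf4 value was -0.103 without tethered replicate 1 and 0.946 (adjusted p = 0.0323) without untethered replicate 1. In both cases 1 array stands for number 1, in the second the array where Atf4 was highest, and the spread comes from the other arrays alone.

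Of 12 serine, glycine and one-carbon enzymes outside the 10 genes, 0 were higher and 2 lower on the arrays numbered 1. These were 16.7% of the 12, beside 10.1% of all genes called (1.41% higher, 8.72% lower). Gcsh, the lipoyl carrier of the glycine cleavage system, stood at -0.78 (SE 0.11, adjusted p = 0.0146) and Mthfd1, the cytosolic folate enzyme, at -0.80 (SE 0.13, adjusted p = 0.0208). Both calls were lost without untethered replicate 1 (adjusted p of 0.083 and 0.118) or tethered replicate 1 (0.118 and 0.126), and that of Mthfd1 also without untethered replicate 3 (0.0535) or tethered replicate 3 (0.0628). Aldh1l2, a mitochondrial folate dehydrogenase, read 6058 and 7126 on the arrays numbered 1 and 1375 to 3607 on the others, and did not pass (1.68, SE 0.41, adjusted p = 0.0592; 0.0354 with quantile normalization).

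Of 18 other amino acid transporters 1 passed, beside 10.1% of all genes (1.41% higher, 8.72% lower). Slc1a4, a carrier of serine and other neutral amino acids, was higher on the arrays numbered 1 by 0.88 (SE 0.18, adjusted p = 0.0405). It read 1542 and 2812 there and 1102 to 1173 on the other 4. The call was lost without tethered replicate 1 (0.46, adjusted p = 0.141), tethered replicate 2 (0.0881), untethered replicate 3 (0.0681) or tethered replicate 3 (0.128). Slc6a9, a glycine transporter, read 5895 and 9389 on the arrays numbered 1 and 1894 to 4552 elsewhere, and did not pass (1.60, SE 0.41, adjusted p = 0.0655; 0.0365 with quantile normalization). Of 11 other amino acid synthesis enzymes 0 passed, with Gpt2, the mitochondrial alanine aminotransferase, at 0.52 (SE 0.14, adjusted p = 0.0747; 0.0388 with quantile normalization).

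Of 19 cytosolic aminoacyl-tRNA synthetases 0 were higher and 1 lower on the arrays numbered 1, beside 1.41% and 8.72% of all genes. The count higher was 4 with quantile normalization and 2 with the mean of the probe sets of a gene. Leaving out each array in turn gave 0 to 5 higher, with 5 without untethered replicate 2, and 0 to 3 lower. All probe sets called higher also rose, from 357 to 910 with quantile normalization and to 822 without untethered replicate 2. The lower one was Hars, at -0.83 (SE 0.08, adjusted p = 0.00874; 0.0841 without tethered replicate 1). Sars, the seryl-tRNA synthetase, stood at 0.65 (SE 0.15, adjusted p = 0.0536; 0.0214 with quantile normalization). The test of the tethered minus untethered value between number 1 and numbers 2 and 3 was above 0 for all 19 synthetases. Their median was 0.44, and 0 passed. Over all genes 57.6% were above 0 there, with a median of 0.036. Other lists also lay mostly above 0, with 11 of 12 serine, glycine and one-carbon enzymes and 17 of 20 regulators. For other transporters it was 13 of 18, and for other synthesis enzymes 7 of 11. Of 10 glycolytic enzymes 0 passed between numbers, and 2 were above 0 in that last test, with a median of -0.18.

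**Figure D5:**
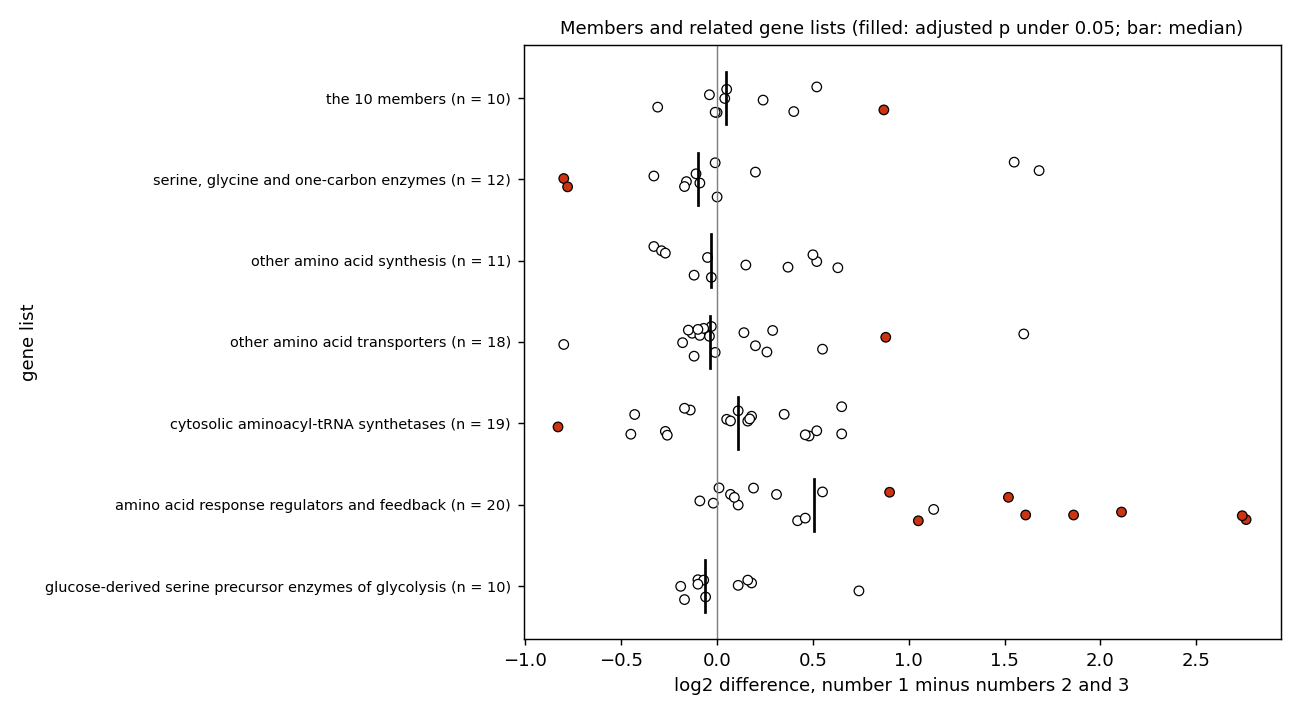
Log2 difference of the arrays numbered 1 minus those numbered 2 and 3 for single genes (points; filled where the adjusted p is under 0.05) in the 10 genes described here and in 6 related lists, with the median as a bar. Slc3a2 is the 1 filled point of the first row, against 8 of 20 in the row of amino acid response regulators and feedback. That row also holds genes of endoplasmic reticulum stress.

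The genes whose profile over the 6 arrays lay nearest to that of Asns were Il1rn, Zfr, Serpinf1, Rock1 and Aldh16a1. Nearness was the root mean square difference of deviations from each probe set's own mean, 0.046 for Il1rn and 0.062 for Aldh16a1 on the log2 scale, over 6 arrays and 19298 probe sets of other genes. The nearest of the other 9 genes described here was Slc7a11, at 0.150, and 667 probe sets of other genes were nearer than it. Slc7a1 stood at 0.151, Phgdh at 0.161 and Slc3a2, the farthest, at 0.347. The measure is not scaled by spread, so the spread of a profile as well as its shape sets the distance. The standard deviation over 6 arrays was 0.230 for Asns and 0.288 for Slc7a1. It was 0.085 for Slc7a11, 0.082 for Phgdh and 0.511 for Slc3a2. All these values share the same 6 arrays and carry no test.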

How the data were processed

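RNA from 3 tethered and 3 untethered samples was biotin-labelled for Affymetrix arrays, per the labels. The authors deposited 1 linear intensity per probe set and array; the sources used here do not give how probes were summarised and scaled. Of 45101 probe sets, 64 controls were left out. Values were floored at 16 before taking log2. Probe sets with a mean log2 above the median were fitted with limma 3.58.1 (R 4.3.3), two-sided, adjusted by Benjamini-Hochberg and called under 0.05. The number comparison held the group as a covariate. The brightest probe set stood for a gene in counts. For arrays, their number and not a read depth limits the precision. The procedure was tested on simulated data with independent noise for each probe set, which hold no shift shared by a whole array.

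The 10 genes, the lists, the split by replicate number and the naming rule were chosen with earlier results of these data known. The rule named every probe set of the 10 genes, up to 4 genes of smallest p per list, and the 5 nearest to Asns. Promoter sequences are from RefSeq. Alternatives were other floors, scalings and filters, an unmoderated model, gene means, a replicate block, no group term and each array left out.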

Additional observations from a re-analysis of the deposited data

How the results depend on the processing

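Between tethered and untethered arrays 0 genes of the 10 and 0 probe sets were called under every alternative run. With the replicate number as a block, 0 probe sets were called and 1232 had an unadjusted limma p under 0.05 (536 without the block). Each number holds 1 array of each group, so the block cannot change the differences themselves. The count of 8 of 10 genes above 0 and the median of 0.044 are therefore those of the main run. The numbers were not taken to pair the samples, since deviations from the group means correlated at 0.71, 0.07 and 0.71 for numbers 1, 2 and 3. Precision is limited by having 6 arrays. Where a value below lost its call or turned, the cause was not tested.

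Between replicate numbers 2220 probe sets were called, but 0 by the unmoderated model. The count of the 10 genes called was 0 without a filter on low values and 0 unmoderated, and that of response regulators was 5 and 0. The count of the 10 genes above 0 between the arrays numbered 2 was 2 with quantile normalization and 0 with gene means, the average over probe sets. Without both arrays numbered 1, the count of genes above 0 between groups was 1 and the values turned for Psph (-0.258), Shmt2 (-0.187), Mthfd2 (-0.317), Asns (-0.015), Slc7a5 (-0.050), Slc7a11 (-0.036) and Slc7a1 (-0.137). Phgdh turned between groups with quantile normalization (0.013) and gene means (0.004). Between numbers Shmt2 turned with quantile normalization (0.169), and Mthfd2 with quantile normalization (0.132), median centring (0.005) and gene means (0.150).

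Leaving out each array in turn gave these ranges. Probe sets called between numbers ranged from 1 to 2847, genes of the 10 called from 0 to 2, genes above 0 from 3 to 9, their median from -0.057 to 0.373, and regulators called from 0 to 10. Genes above 0 between groups ranged from 2 to 9. In the test of the difference between numbers, probe sets called ranged from 0 to 28, with 17 without untethered replicate 2 and 28 without untethered replicate 3, and genes above 0 from 8 to 10.

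Between groups the values ranged from -0.069 to 0.055 (Phgdh), -0.242 to 0.357 (Psph), -0.101 to 0.125 (Shmt2), -0.159 to 0.178 (Mthfd2), -0.086 to 0.194 (Asns), -0.496 to 0.129 (Slc3a2), -0.014 to 0.092 (Slc7a11) and -0.178 to 0.17 (Slc7a1). Between numbers they ranged from -0.044 to 0.063 (Phgdh), -0.049 to 1.084 (Psph), -0.334 to 0.257 (Shmt2), -0.485 to 0.474 (Mthfd2), -0.331 to 0.401 (Slc7a5), -0.065 to 0.158 (Slc7a11) and -0.103 to 0.946 (Atf4). In the test of the difference they ranged from -0.051 to 0.198 (Phgdh) and -0.027 to 0.461 (Asns).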

Other observations

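Some genes of amino acid metabolism outside the naming rule, chosen after their values were seen, had their highest value on tethered replicate 1 and their 3 lowest on tethered 2 and both arrays numbered 3. Cth, which makes cysteine from cystathionine, read 582, 698 and 293 on untethered arrays 1, 2 and 3 and 1881, 275 and 291 on the tethered ones. Aldh18a1, the first enzyme of proline synthesis, read 4092, 4661 and 2750 on untethered and 5847, 2503 and 3082 on tethered arrays. Slc1a5, a glutamine carrier, read 3650, 3744 and 2610 on untethered and 4959, 2583 and 2791 on tethered arrays. None passed between replicate numbers, with limma adjusted p of 0.163 for Cth, 0.228 for Aldh18a1 and 0.149 for Slc1a5. Tethered 2 and both arrays numbered 3 also had the highest 5' to 3' differences of the transferrin receptor, and the part of RNA quality was not tested. The share of all genes with this order of arrays was not counted.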
